A study of Mus musculus with 8 samples.

Results

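The genes described here encode 10 proteins that mark mRNAs for decay in T cells: Zfp36, Zfp36l1 and Zfp36l2 of the ZFP36 family, Btg1, Btg2, Tob1 and Tob2 of the BTG/TOB family, and the Roquin and Regnase genes Rc3h1, Rc3h2 and Zc3h12a. They were chosen by name, with their difference between bone marrow Treg (BM-Treg) and spleen Treg (SP-Treg) already known. Fold changes between the tissues are therefore given for them as a description and without p-values. Of the 38215 genes in the deposited table, 11 rows carry these 10 names, since Tob2 is listed under a pair of identifiers. All 11 rows passed the expression filter, so that none was left out.

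ZFP36 proteins are zinc finger proteins that bind AU-rich elements in the 3′ UTR of mRNAs for cytokines and growth regulators and bring in the CCR4-NOT deadenylase, which removes the poly(A) tail. BTG and TOB proteins bind the deadenylase subunits of the same complex, and TOB proteins also bind poly(A) binding protein. They are known for keeping lymphocytes quiescent. The Roquin proteins recognise stem-loops in 3′ UTRs and also recruit CCR4-NOT, while Regnase-1, the product of Zc3h12a, is an endonuclease that cuts mRNAs at related stem-loops. Zfp36 and Btg2 also belong to the genes that cells switch on within minutes of a stimulus.

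RNAseq was performed on 4 BM-Treg and 4 SP-Treg libraries. The cells were FoxP3+ cells sorted from B6.FoxP3-GFP mice aged 12 weeks, in which a green fluorescent protein marks FoxP3 expression, and the labels give the genotype C57Bl/6 for all 8 libraries. No treatment is given for any of them. According to the labels, BM-Treg replicates 1 to 3 came from females in batch 1, and males in batch 3 gave the SP-Treg libraries as well as BM-Treg replicate 4. Tissue therefore cannot be told apart from sex and batch except through BM-Treg replicate 4. For most of the 10 genes the difference is also given with batch 3 alone. There BM-Treg has a single library, and the value is given without a test. The differences of genes in the other lists are not given with batch 3 alone. The methods of the paper name female mice as the default, which the labels of males do not match. Its figure legend for these data gives 3 replicates per tissue, while its methods give 4. Nothing states whether replicates are separate animals or pools. The titles of the SP-Treg libraries carry ranges of numbers (SP1-4, SP3-6, SP5-8 and SP6-9) that overlap and are not explained. If they number pooled animals, SP-Treg libraries share animals and are not 4 independent samples. Errors and p-values hence measure the spread between these libraries, which may be partly technical. Each library was made from over 100000 sorted cells by isothermal amplification of 15 ng of RNA, without molecular identifiers.

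The libraries held from 12427136 to 21921252 expected counts assigned to genes. Mitochondrial ribosomal RNA took 17.7% of the counts in SP-Treg replicate 1 and between 22.7% and 30.1% in the other libraries. Of the 7 Treg markers Foxp3, Cd3e, Cd3g, Cd4, Il2ra, Ctla4 and Ikzf2, 0 differed between the tissues at an adjusted p of 0.05 and 1 had an unadjusted p under 0.05 in edgeR's quasi-likelihood test. The share of all genes under that unadjusted threshold was not taken. The levels of the 7 markers summed to between 7335 and 8723 CPM (counts scaled by TMM to one library size) in BM-Treg, and to between 8077 and 8884 CPM in SP-Treg, so that the sorted cells carried the markers of their label in both tissues. Other cell types were low beside this. B cell markers (5 genes) summed to between 10.8 and 13.9 CPM in BM-Treg and between 6.32 and 95.2 CPM in SP-Treg, and markers of erythroid cells (6 genes) to between 12.6 and 32.5 CPM and between 1.80 and 453 CPM.

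A nonamer, TTATTTATT, is a known core of the AU-rich elements that ZFP36 proteins bind, and 5 of the 10 genes hold it in their own 3′ UTR on the GENCODE M21 annotation of GRCm38. These are the 3 ZFP36 genes and both Roquin genes, each with 1 copy in the transcript taken for the gene, while Btg1, Btg2, Tob1, Tob2 and Zc3h12a have none. The sites are shown with the bases around them, 5′ to 3′ on the strand of the gene and with the nonamer in capitals, since they place these RNAs among those that carry the element that ZFP36 proteins bind. The windows are chr7:28376950-28376979 (minus strand) for Zfp36, chr12:80108166-80108195 (minus) for Zfp36l1, chr17:84184913-84184942 (minus) for Zfp36l2, chr1:160970043-160970072 (plus) for Rc3h1 and chr2:37373286-37373315 (minus) for Rc3h2.
Zfp36: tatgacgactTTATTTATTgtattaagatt
Zfp36l1: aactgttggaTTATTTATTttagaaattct
Zfp36l2: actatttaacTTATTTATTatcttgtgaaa
Rc3h1: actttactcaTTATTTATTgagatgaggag
Rc3h2: caaagacattTTATTTATTttactctgtaa

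With 1 transcript taken per gene and the sense strand searched, 829 of 11284 tested genes with an annotated 3′ UTR held the nonamer (7.35%). Their 3′ UTRs had a median length of 2210 nt, against 1020 nt over all of these genes. The 3′ UTRs of the 5 members with the nonamer ran from 774 nt in Zfp36 to 7181 nt in Rc3h1, and those of the other 5 from 767 nt in Tob1 to 4166 nt in Btg1. These ranges overlapped. The shorter motif ATTTA, which lies within the nonamer and is far more common (66.7% of genes), occurred in all 10, from 3 copies in Zfp36, Tob1 and Zc3h12a to 20 in Rc3h1. A match describes the letters only and does not show that a protein binds there.

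At the level of the whole group, 3 of the 11 rows were called higher in BM-Treg at an adjusted p of 0.05 (Zfp36l2, Tob1 and Zfp36l1) and 0 were called lower. Over all 13397 genes tested, 8.75% were called, 3.72% higher and 5.02% lower. In 5 of the 11 rows the libraries of the tissues did not overlap, with BM-Treg 4 times above (Zfp36l1, Zfp36l2, Tob1 and the longer Tob2 row) and 1 time below (Btg1), where the share over all genes was 7.58% above and 8.57% below. The log2 fold change was above 0 in 8 of the 11 rows and in 48.6% of all genes tested, and its median was 0.39 over the 11 rows and -0.01 over all genes. Since the names were chosen with this contrast known, nothing is read from these counts. In RNA from sorted populations, fewer cells that express a gene and less of its RNA per cell cannot be told apart, which holds for every level given here.

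**Figure D1:**
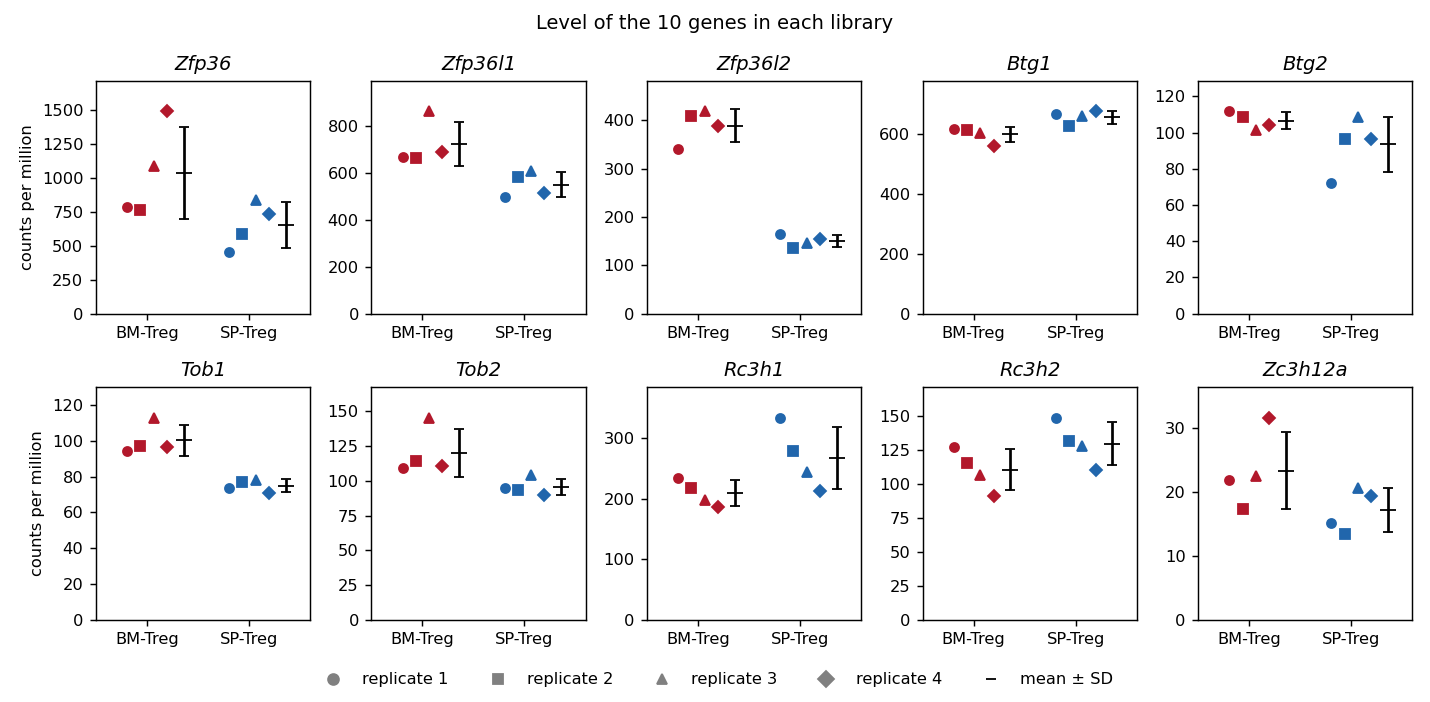
Each panel plots the CPM (linear axis from 0) of 1 gene in the 4 BM-Treg (red) and 4 SP-Treg (blue) libraries, with the replicate shown by the symbol and the mean ± SD in black. Zfp36l2 is the gene with the widest gap between the tissues, from 341 CPM in the lowest BM-Treg library to 165 CPM in the highest SP-Treg library.

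Zfp36l2, which restrains proliferation in developing lymphocytes, had the largest difference among the 10 genes measured by their main rows. It lies at chr17:84183931-84187947 on the minus strand of GRCm38. Its level was 341, 409, 418 and 389 CPM in BM-Treg replicates 1 to 4 and 165, 137, 147 and 154 CPM in SP-Treg replicates 1 to 4. The lowest BM-Treg library was thus far above the highest SP-Treg library. The means were 389 ± 34.6 and 151 ± 11.9 CPM (SD, n = 4 each), a 2.58-fold higher level in BM-Treg (log2 fold change 1.37 ± 0.10 SE). Batch 3 alone gave the same log2 fold change, 1.37. Across the alternative settings it ran from 1.32 to 1.45.

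Zfp36, the gene of tristetraprolin, which is itself induced rapidly by cytokines and receptor signals, varied most between libraries of a tissue. It lies at chr7:28376784-28379255 on the minus strand. BM-Treg replicates 1 to 4 had 788, 767, 1091 and 1490 CPM, and SP-Treg replicates 1 to 4 had 457, 583, 840 and 731 CPM. SP-Treg replicate 3 lay above BM-Treg replicates 1 and 2, so that the tissues overlapped. The log2 fold change was 0.66 ± 0.25 SE and was not called. It ran from 0.43 to 0.81 when single libraries were left out and was 1.19 in batch 3 alone, where BM-Treg is represented by replicate 4, its highest library.

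Zfp36l1, the relative of tristetraprolin that is best known for its part in B cell development and growth factor mRNA decay, lies at chr12:80107760-80113013 on the minus strand. It had 669, 664, 862 and 690 CPM in BM-Treg and 498, 581, 606 and 515 CPM in SP-Treg. All BM-Treg libraries were above all SP-Treg libraries, and BM-Treg replicate 3 was highest. It differed by a log2 fold change of 0.39 ± 0.12 SE, and of 0.33 in batch 3 alone. The call was close to the threshold and was kept in 8 of 16 alternative settings: with a single library left out it held only without SP-Treg replicate 3, at log2 fold changes from 0.30 to 0.45.

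Levels per transcript length (FPKM) can be compared between genes. On this scale Zfp36 was the most abundant of the 10 genes in both tissues, at 612 ± 175 FPKM in BM-Treg and 368 ± 77.2 FPKM in SP-Treg (SD, n = 4), followed by Zfp36l1 at 324 ± 51.6 and 218 ± 14.0 FPKM. Zfp36l2 was at 115 ± 11.7 and 42.8 ± 6.18 FPKM. The 3 genes of the family together reached between 889 and 1230 FPKM in BM-Treg libraries and between 548 and 724 FPKM in SP-Treg libraries. Zfp36l2, despite its fold change, thus made up only 11.2% ± 2.10 of the FPKM of its family in BM-Treg and 6.94% ± 1.70 in SP-Treg.

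The RNA of Zfp36l1 comes in a pair of annotated protein-coding transcripts with the same coding length of 1017 nt and different 3′ ends. ENSMUST00000021552 has 2 exons and a 3′ UTR of 1835 nt with 9 copies of ATTTA and the nonamer shown above. ENSMUST00000165114 has 3 exons and a 3′ UTR of 794 nt, with 1 copy of ATTTA and no nonamer. Their difference between the tissues was not alike.

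The short transcript was estimated at 343, 311, 452 and 298 CPM in BM-Treg replicates 1 to 4 and at 122, 220, 212 and 172 CPM in SP-Treg replicates 1 to 4, with no overlap. The long transcript was estimated at 326, 353, 410 and 392 CPM in BM-Treg and at 376, 361, 395 and 342 CPM in SP-Treg, where the tissues overlapped fully. The means of the short transcript were 351 ± 70.2 and 181 ± 44.8 CPM, a ratio of 1.94, and those of the long transcript were 370 ± 37.6 and 368 ± 22.1 CPM, a ratio of 1.01 (SD, n = 4 each). By these estimates, nearly all of the difference of the gene between the tissues lay in the transcript without the nonamer. Its share of the expected counts of the gene was 48.4% ± 4.28 in BM-Treg and 32.7% ± 5.76 in SP-Treg, a difference of 15.7 percentage points, and 16.4 points with shares of FPKM. Within batch 3, BM-Treg replicate 4 had a share of 43.1% against 24.5% to 37.8% in the SP-Treg libraries. How reads are divided between overlapping transcripts is a model estimate of the counting program, and no test was made since these values come from the contrast by which the gene was chosen.

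**Figure D2:**
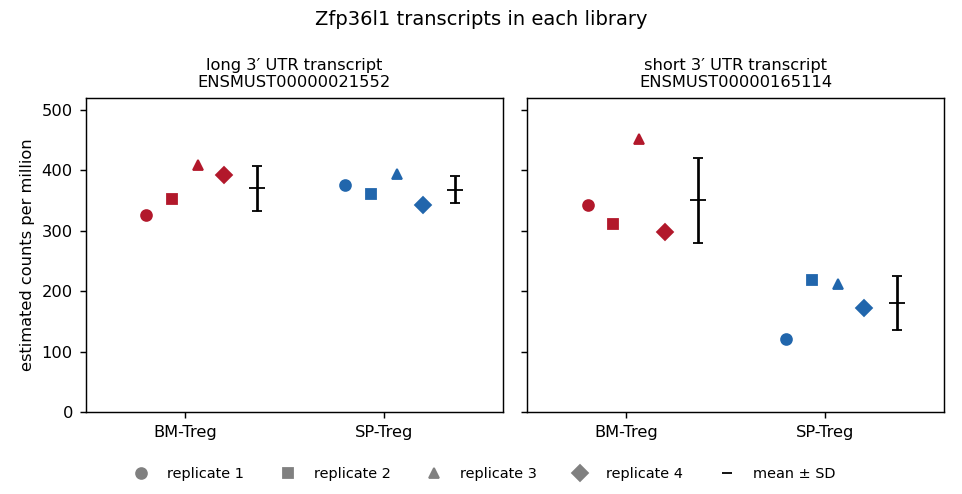
The estimated CPM (linear axis from 0) of the transcripts of Zfp36l1 with the long and the short 3′ UTR are plotted for each BM-Treg (red) and SP-Treg (blue) library, with the mean ± SD in black. The long transcript lies between 326 and 410 CPM in both tissues, whereas the short one lies between 298 and 452 CPM in BM-Treg and between 122 and 220 CPM in SP-Treg.

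Of the BTG/TOB family, Tob1, a quiescence factor of unstimulated T cells, was called higher in BM-Treg. It lies at chr11:94211454-94215495 on the plus strand. It had 94.3, 96.9, 113 and 96.6 CPM in BM-Treg replicates 1 to 4 and 73.5, 77.1, 78.3 and 70.6 CPM in SP-Treg replicates 1 to 4. All BM-Treg libraries were above all SP-Treg libraries, and BM-Treg replicate 3 was highest. This gave a log2 fold change of 0.42 ± 0.10 SE, and of 0.37 in batch 3 alone. It was called in 14 of 16 alternative settings and not with batch as a term, nor without BM-Treg replicate 3, where the log2 fold change was 0.36.

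Tob2, its close relative, differed in the same direction by less. Its main row lies at chr15:81848270-81858326 on the minus strand. The levels were 110, 114, 146 and 111 CPM in BM-Treg and 94.9, 93.7, 104 and 89.7 CPM in SP-Treg, without overlap and again with BM-Treg replicate 3 highest. At 0.33 ± 0.11 SE, its log2 fold change was not called in any setting. The other row named Tob2, at chr15:81857674-81858796 across the 5′ end of the gene, held between 0.14 and 1.71 CPM and is absent from the GENCODE M21 annotation. Its reads cannot be told apart from those of the main row with certainty, and its log2 fold change of 1.21 was not called.

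Btg1, which together with Btg2 is known for holding T cells in quiescence, was the single member below SP-Treg in every BM-Treg library. It lies at chr10:96617001-96622813 on the plus strand. The levels were 616, 614, 602 and 561 CPM in BM-Treg and 665, 625, 659 and 675 CPM in SP-Treg, and the lowest SP-Treg and the highest BM-Treg library lay close together. Its log2 fold change was small, -0.13 ± 0.093 SE, and was not called in any setting. It was -0.23 in batch 3 alone and -0.06 on the scale of log2(FPKM + 1).

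Btg2, the member of the pair that responds to p53 and to receptor signals, overlapped between the tissues. It lies at chr1:134075170-134079120 on the minus strand. BM-Treg replicates 1 to 4 lay closely together at 112, 109, 101 and 104 CPM, while SP-Treg replicates 1 to 4 had 72.3, 96.6, 109 and 96.6 CPM. SP-Treg replicate 1, the library with the lowest share of mitochondrial ribosomal RNA, was the lowest. The log2 fold change was 0.19 ± 0.12 SE and was not called in any setting.

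The composition of the family differed more than its total. Btg1 made up 51.2% ± 1.59 of the FPKM of the 4 BTG/TOB genes in BM-Treg and 58.8% ± 2.34 in SP-Treg, with no overlap (between 49.2% and 52.6% against between 56.5% and 61.4%). Tob1 made up 19.1% ± 1.17 and 15.0% ± 0.72. The sum over the 4 genes was between 217 and 259 FPKM in BM-Treg and between 210 and 236 FPKM in SP-Treg, with overlapping libraries.

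Of the Roquin and Regnase genes, 0 of 3 were called. Rc3h1, the gene of Roquin-1, which limits Icos mRNA in T cells, lies at chr1:160906418-160974978 on the plus strand. BM-Treg replicates 1 to 4 had 234, 217, 198 and 185 CPM, and SP-Treg replicates 1 to 4 had 334, 278, 243 and 213 CPM. The tissues overlapped, since SP-Treg replicate 4 lay below BM-Treg replicates 1 and 2. The log2 fold change was -0.36 ± 0.13 SE, not called with all libraries and called lower in BM-Treg without SP-Treg replicate 4, where it was -0.45. It was -0.53 in batch 3 alone.

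Rc3h2, the gene of Roquin-2, lies at chr2:37370069-37422903 on the minus strand and had 127, 116, 107 and 91.4 CPM in BM-Treg and 149, 131, 128 and 111 CPM in SP-Treg. The tissues overlapped here too, and the log2 fold change of -0.23 ± 0.12 SE (-0.50 in batch 3 alone) was not called in any setting. Its transcript ENSMUST00000112934, with a 3′ UTR of 5331 nt, took 27.5%, 29.6%, 31.0% and 40.7% of the counts of the gene in BM-Treg and 21.9%, 26.2%, 25.5% and 10.1% in SP-Treg. These shares did not overlap, but the lowest BM-Treg and the highest SP-Treg share lay close together, and in CPM the transcript overlapped between the tissues. The main transcripts of Rc3h1 had like shares in both tissues, 67.5% and 67.8% of the counts for ENSMUST00000161609, which holds the nonamer. Per length, most of the RNA of Rc3h1 was assigned to ENSMUST00000035911, whose annotated 3′ UTR of 20 nt has no nonamer, with 56.1% and 55.8% of the FPKM of the gene.

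Zc3h12a, the gene of Regnase-1, was the least abundant of the 10 genes in FPKM. It lies at chr4:125118423-125127840 on the minus strand. It had 21.9, 17.3, 22.5 and 31.7 CPM in BM-Treg and 15.1, 13.5, 20.6 and 19.4 CPM in SP-Treg, with overlap. The log2 fold change of 0.44 ± 0.19 SE was not called in any setting and was 0.88 in batch 3 alone, where BM-Treg replicate 4 is again the highest library.

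**Figure D3:**
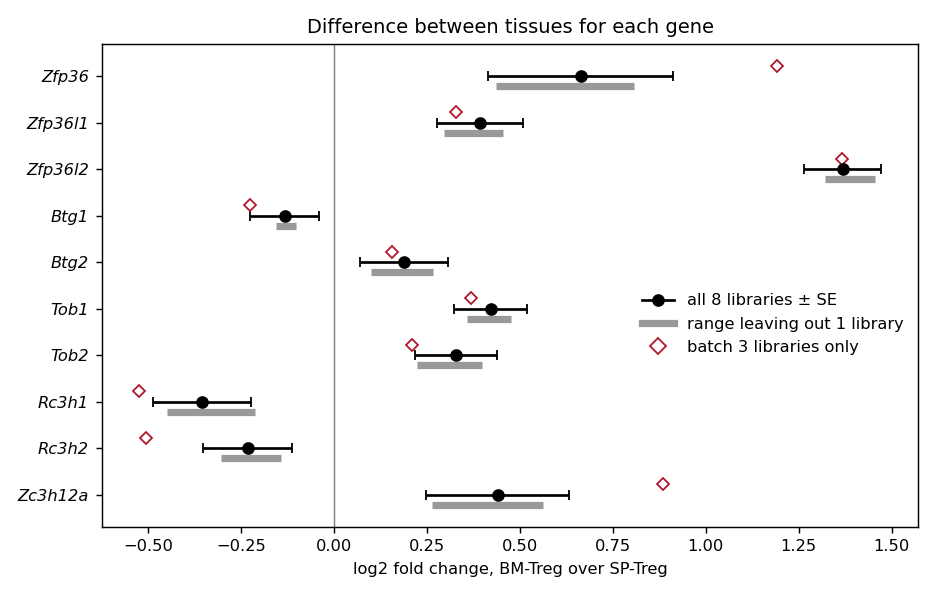
The log2 fold change of BM-Treg over SP-Treg is plotted for each gene, as the estimate from all 8 libraries with its SE (black), the range of estimates with 1 library left out (grey bar) and the value within batch 3 (open diamond, 1 BM-Treg against 4 SP-Treg libraries, no error). All values of Zfp36l2 lie between 1.32 and 1.45, while Zfp36, Zc3h12a, Btg1, Rc3h1 and Rc3h2 lie farther from 0 in batch 3 than with all libraries.

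The order of the 10 genes by FPKM was alike at its ends in both tissues. After Zfp36 and Zfp36l1 came Btg1, with means of 124 FPKM in BM-Treg (109.6 to 131) and 130 FPKM in SP-Treg (119.7 to 145), and the last were Rc3h2 (19.0 ± 3.27 and 21.7 ± 3.69) and Zc3h12a (10.5 ± 2.21 and 7.19 ± 1.89). In BM-Treg, Btg1 and Zfp36l2 did not differ beyond their spread, and after them Tob1, Btg2, Rc3h1 and Tob2 followed, between 46.4 and 31.4 FPKM, with each overlapping the next. In SP-Treg, Zfp36l2 had moved down into a group of overlapping genes with Rc3h1, Btg2 and Tob1, between 43.4 and 33.1 FPKM. Zfp36l2 was thus level with Btg1 in BM-Treg, and level with Rc3h1 in SP-Treg.

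Variation among the libraries of 1 tissue does not use the difference between the tissues. In BM-Treg it does include the difference in batch and labelled sex between replicate 4 and replicates 1 to 3, whose part was not tested. After the mean of each tissue was removed from the log2 CPM values, the 45 pairs of members had a median Pearson correlation of 0.01 over 8 libraries, from -0.86 to 0.95, with 23 pairs above 0. The group as a whole thus did not vary together. Within it, 5 pairs exceeded 0.8: Tob1 with Tob2 (r = 0.95, Spearman rho = 0.90), Zfp36l1 with Tob1 (0.94, 0.60) and with Tob2 (0.88, 0.48), Rc3h1 with Rc3h2 (0.91, 0.90), and Zfp36 with Zc3h12a (0.87, 0.88). The pairs of Zfp36l1, Tob1 and Tob2 leaned on BM-Treg replicate 3, without which r was 0.85 for Zfp36l1 with Tob1, 0.63 for Zfp36l1 with Tob2 and 0.80 for Tob1 with Tob2. On log2(FPKM + 1) r was 0.79 for Zfp36l1 with Tob1 and 0.72 for Zfp36 with Zc3h12a. The other named pairs stayed above 0.8 on that scale. Some further pairs changed more, such as Zfp36l2 with Btg1, from 0.22 to 0.71.

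The lowest correlations were those of Zfp36 with Rc3h2 (r = -0.86) and Rc3h1 (r = -0.84), each with rho = -0.86, and with any library left out they stayed between -0.95 and -0.76. Libraries with more Zfp36 RNA had less of the Roquin RNAs. Fos, an immediate early gene with the nonamer in its own 3′ UTR that was singled out after its values had been seen, followed the same line: r was 0.94 with Zfp36 and -0.96 with Rc3h1. Both values of a pair come from the same library and share its depth and amplification. The share of mitochondrial ribosomal RNA varied with some members too, at r = 0.74 with Zfp36, 0.91 with Btg2 and -0.77 with Rc3h1, and its part in these patterns was not tested.

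**Figure D4:**
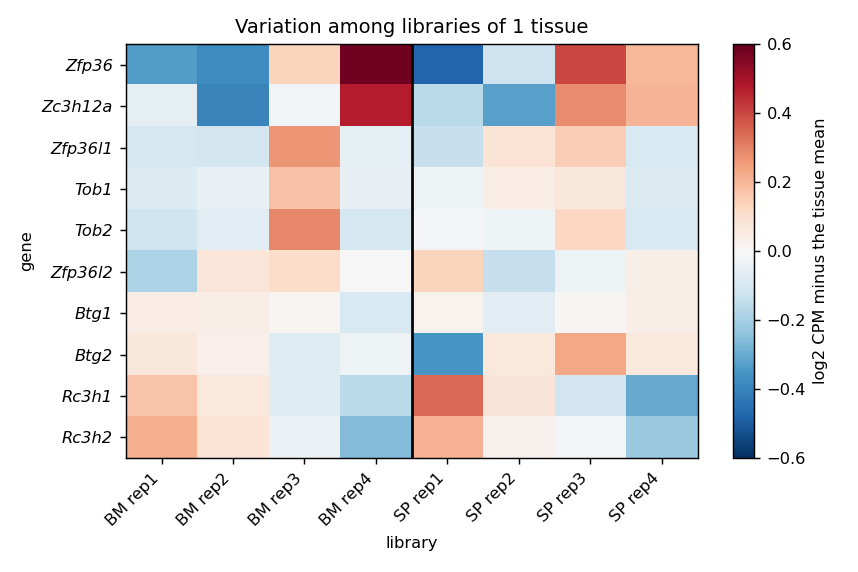
Colours give the log2 CPM of each gene (rows) in each library (columns) minus the mean of its tissue, so that the difference between the tissues is removed. Zfp36 and Zc3h12a share their highest BM-Treg library, replicate 4, in which Rc3h1 and Rc3h2 are at their lowest in BM-Treg. That library is also the single one of BM-Treg in batch 3. Zfp36l1, Tob1 and Tob2 are highest in BM-Treg replicate 3.

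Immediate early genes were examined beside Zfp36 and Btg2, since handling of tissue can raise them. Of 21 listed genes 19 were tested, 5 rose and 4 fell in BM-Treg (edgeR's quasi-likelihood test, adjusted over all genes tested), with a median log2 fold change of 0.03. The share over all genes tested was 3.72% higher and 5.02% lower. As the list was chosen with earlier results of these data known, its count is not independent evidence. The list was split: Fosb (2.54 ± 0.58 SE, adjusted p = 0.0452), Dusp1 (1.38 ± 0.29, 0.0236) and Junb (1.31 ± 0.27, 0.0216) rose, and Egr2 (-2.41 ± 0.28, 0.00131), Egr1 (-1.02 ± 0.17, 0.00343) and Egr3 (-0.86 ± 0.23, 0.0314) fell.

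Their summed level was 1464, 1623, 2311 and 2263 CPM in BM-Treg replicates 1 to 4 and between 1366 and 1618 CPM in SP-Treg, and it was highest in BM-Treg replicates 3 and 4, in which Zfp36 was highest too. The part of handling in the level of Zfp36 was not tested. Egr1 and Egr2 were called lower with every single library left out. Klf6 was called higher in BM-Treg in all of these fits, at log2 fold changes from 0.44 to 0.61. Among these fits Fosb was kept only without SP-Treg replicate 1 (adjusted p = 0.0398) or 3 (0.0441). Egr3 was kept only without BM-Treg replicate 1 (0.0472) or SP-Treg replicate 4 (0.0313). Junb was lost without BM-Treg replicate 4 (0.0516) or SP-Treg replicate 3 (0.0551), and Dusp1 without BM-Treg replicate 3 (0.0550) or 4 (0.0595) or SP-Treg replicate 2 (0.0656) or 4 (0.0578). With batch as a term, 2 genes of the list were called, Egr2 and Klf6, and Egr1 was not.

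The promoter of Zfp36 holds a CArG box, the sequence bound by serum response factor, which drives many immediate early genes. It begins at position -58 from the start in RefSeq (GRCm38.p6, chr7:28379179-28379478, minus strand), and it is shown in capitals in the 300 bases from 250 before to 50 after that start. Both strands were searched, and 1.63% of 32851 promoters of this length held a CArG box.
Zfp36: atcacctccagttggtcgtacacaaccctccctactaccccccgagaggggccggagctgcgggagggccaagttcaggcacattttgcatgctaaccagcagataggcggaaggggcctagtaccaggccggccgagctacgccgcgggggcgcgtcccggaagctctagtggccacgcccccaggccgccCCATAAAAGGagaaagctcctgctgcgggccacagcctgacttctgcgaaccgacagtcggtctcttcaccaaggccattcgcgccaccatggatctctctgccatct

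RefSeq promoters were matched for 9 of the 10 genes, all but Zfp36l2, and no other member held a CArG box in this window. Btg2 was the single member with the cAMP response motif TGACGTCA, at position -166, which 1.79% of promoters held. These matches are descriptions of sequence, and no binding was measured.

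Genes of the enzymes that act with the 10 proteins were examined next. Of 45 genes of the decay machinery, all tested, 0 rose and 2 fell in BM-Treg, where 8.75% of all genes tested were called. Of the 45, 14 had an unadjusted p under 0.05 in either direction. The share of all genes tested under 0.05 before adjustment was not taken, so nothing is read from such counts. The median log2 fold change was -0.11 (edgeR's quasi-likelihood test), and 15 of the 45 were above 0, against 48.6% of all genes tested. Which genes passed the threshold depended on the setting. By DESeq2's test 1 rose and 4 fell, and 1 rose and 1 fell without the filter or with at least 10 counts in each library. On log2(FPKM + 1) 2 rose and 0 fell, and on log2(FPKM + 0.1) 1 rose and 0 fell. The genes that rose in these settings were Skiv2l, a helicase that feeds RNA to the exosome, and Lsm2, a subunit of the ring that binds deadenylated 3′ ends. None of the 11 genes of the CCR4-NOT complex was called by edgeR (median -0.14), from Cnot10 at -0.41 to Cnot11 at 0.11. By edgeR 3 of them had an unadjusted p under 0.05, and by DESeq2's test 2 were called lower, Cnot6 (adjusted p = 0.0401) and Cnot10 (0.0206). Mean levels in BM-Treg and SP-Treg were 430 and 475 CPM for the scaffold subunit Cnot1, and 44.2 and 48.9 CPM for the deadenylase subunit Cnot7, a partner of BTG and TOB proteins.

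The machinery genes that fell in edgeR's test were Dcp2, the catalytic subunit of the decapping enzyme, and Pabpc1, the main cytoplasmic poly(A) binding protein. In BM-Treg Dcp2 was at 62.4 ± 10.3 CPM, against 95.2 ± 18.9 CPM in SP-Treg (log2 fold change -0.61 ± 0.15 SE, adjusted p = 0.0222, edgeR). Pabpc1 was at 1146 ± 98.7 and 1482 ± 107 CPM (-0.37 ± 0.11, adjusted p = 0.0447). Neither call held with every single library left out: Dcp2 was kept without BM-Treg replicate 1 (adjusted p = 0.0251), SP-Treg replicate 3 (0.0312) or 4 (0.00916) and had 0.0551 to 0.0658 without each of the others, and Pabpc1 was kept without BM-Treg replicate 3 (0.0484) and had 0.0558 to 0.148 without each of the others. On either FPKM scale neither was called.

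Relatives of the 10 genes and other proteins that bind AU-rich or stem-loop elements were listed too. Of 15 listed genes 13 were tested, 0 rose and 3 fell in BM-Treg, with a median log2 fold change of -0.15. Over all genes tested, 3.72% were called higher and 5.02% lower. This list was also chosen with earlier results of these data known, so that its count is not independent evidence of a direction. Zc3h12d and Zc3h12c encode Regnase-4 and Regnase-3, relatives of the product of Zc3h12a. Zc3h12d had 102, 105, 122 and 71.6 CPM in BM-Treg and 202, 191, 162 and 157 CPM in SP-Treg, with no overlap. Its log2 fold change was -0.83 ± 0.15 SE (adjusted p = 0.00341, edgeR), and it was called in all 16 alternative settings.

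Across the Regnase genes the log2 fold change was 0.44 for Zc3h12a, -0.37 for Zc3h12b, -0.91 for Zc3h12c and -0.83 for Zc3h12d. Zc3h12c (17.7 ± 5.07 and 33.5 ± 9.08 CPM, adjusted p = 0.0306) lost its call without BM-Treg replicate 1 (0.106) or 2 (0.0588) or SP-Treg replicate 1 (0.0765) or 2 (0.0762). Arid5a, which stabilises mRNAs by competing with Regnase-1 at their stem-loops, fell from 37.9 ± 1.07 to 27.3 ± 3.71 CPM in BM-Treg (log2 fold change -0.47 ± 0.12 SE, adjusted p = 0.0256). It was kept without BM-Treg replicate 2 (0.0340) or SP-Treg replicate 3 (0.0417) or 4 (0.0482) and had 0.0557 to 0.0692 without each of the others. Elavl1, the gene of HuR, which stabilises AU-rich mRNAs, was at a log2 fold change of -0.20 and not called, and its 3′ UTR held 8 copies of the nonamer.

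Of 23 transcripts listed as known targets of the ZFP36, Roquin or Regnase proteins, 16 were tested, 0 rose and 6 fell in BM-Treg, with a median log2 fold change of -0.30. Over all genes 5.02% were called lower. The 7 that could not be tested, among them Il2, Il6 and Csf2, were at or near 0 in these cells. The list was written with results of these data known, so that its count is not independent evidence of a direction.

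Tnf, the first known target of tristetraprolin, has 5 copies of the nonamer in its 3′ UTR. It had 10.9, 11.7, 9.89 and 15.0 CPM in BM-Treg and 20.5, 28.6, 28.5 and 26.7 CPM in SP-Treg, with no overlap (log2 fold change -1.14 ± 0.17 SE, adjusted p = 0.00108, edgeR). Its call was kept with every single library left out and lost with batch as a term (adjusted p = 0.107).

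Bcl2, a survival factor whose 3′ UTR holds 2 copies, had 82.1, 78.7, 82.2 and 54.6 CPM in BM-Treg and 105, 135, 161 and 192 CPM in SP-Treg (-0.99 ± 0.18, adjusted p = 0.00682). Rel, an NF-κB subunit that Roquin and Regnase-1 restrain and whose 3′ UTR holds 1 copy, had 87.4, 74.3, 88.5 and 81.2 CPM in BM-Treg and 140, 122, 163 and 144 CPM in SP-Treg (-0.78 ± 0.11, adjusted p = 0.000909). Irf4, a regulator of effector Treg, has no nonamer and was at 136 ± 12.1 and 300 ± 62.2 CPM (-1.14 ± 0.14, adjusted p = 0.000392). Bcl2, Rel and Irf4 were called in all 16 alternative settings. Of the tested targets that edgeR did not call with all libraries, Cxcl2 holds 4 copies of the nonamer, and Notch1 and Fos hold 1 each.

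Myc and Icos fell with less support, and neither has the nonamer in the 3′ UTR of the transcript taken. For Myc this annotated 3′ UTR has only 159 nt, and no other transcript of the gene was searched. Myc was at 45.9 ± 5.28 and 94.7 ± 38.0 CPM (-1.04 ± 0.26, adjusted p = 0.0413, edgeR), and with single libraries left out the call held without SP-Treg replicate 1 (0.00486) or 2 (0.0307) and had 0.0521 to 0.119 without each of the others. Icos, the costimulator that Roquin-1 represses, was at 1090 ± 111 and 1531 ± 318 CPM (-0.49 ± 0.14, adjusted p = 0.0439). With single libraries left out its call held without SP-Treg replicate 3 (0.0494) or 4 (0.0186) and had 0.0641 to 0.144 without each of the others. With batch as a term the adjusted p was 0.284 for Myc and 0.400 for Icos, and each was called in 6 of 16 alternative settings. Fos had a log2 fold change of 1.43 ± 0.40 SE and was not called by edgeR (adjusted p = 0.0712), whereas it was called higher in BM-Treg by DESeq2's test (0.0101) and on log2(FPKM + 1) (0.0158) and log2(FPKM + 0.1) (0.0184).

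**Figure D5:**
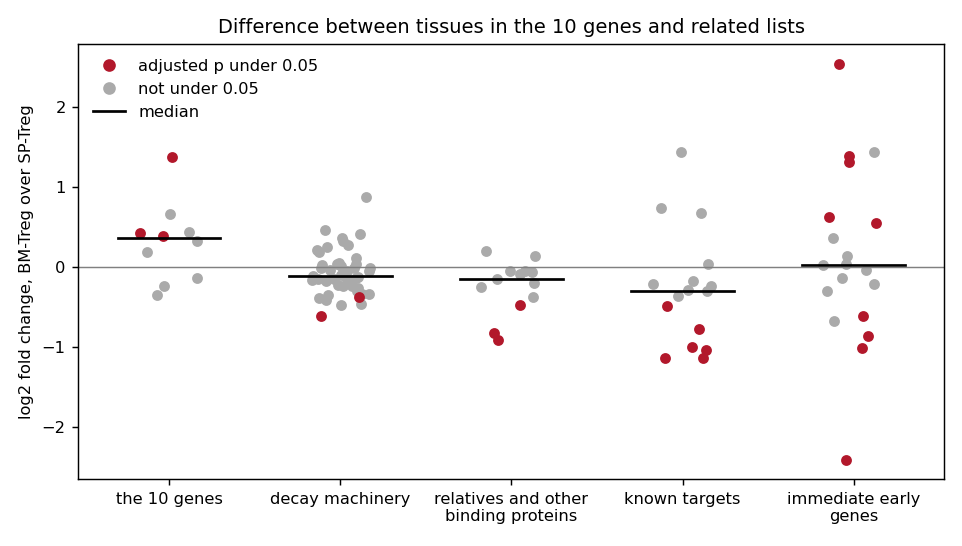
Each point is the log2 fold change of BM-Treg over SP-Treg of 1 gene, in red where its adjusted p was under 0.05 (edgeR) and in grey otherwise, with a black line at the median of each list. The 10 genes lie between -0.36 and 1.37, the called genes among the relatives and known targets lie below 0, and the called immediate early genes lie on both sides of 0.

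The nonamer was also taken across all genes, as a measure that the choice of the 10 genes did not use. Of the 829 genes with it, 24 (2.9%) were called higher and 62 (7.5%) lower in BM-Treg, which is 10.4% in all. Of the 10455 genes without it, 440 (4.2%) were called higher and 570 (5.5%) lower, which is 9.66% in all. The median log2 fold changes were -0.03 with the nonamer and -0.01 without it. Genes with the nonamer have longer 3′ UTRs, and the shares called were not adjusted for this. They also include the members that hold it. Other motifs searched in the same way gave a like tilt. With TGTANATA 3.45% were called higher and 6.28% lower, against 4.32% and 5.38% without it. With ATTTA the shares were 3.56% and 6.30%, against 5.22% and 4.21% without it. The tilt was thus not particular to the nonamer.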

How the data were processed

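RNAseq was analysed for 4 BM-Treg and 4 SP-Treg libraries, grouped by the tissue given in the sample labels. The authors deposited expected counts, estimated reads per gene and per transcript without normalization between libraries, and FPKM, in which counts are divided by transcript length and depth. The submitters' processing notes name cutadapt 1.9, STAR 2.5.2a, RSEM 1.2.30 and GRCm38. Reads were single-end, 80 nt, from RNA amplified with the NuGEN system. The paper names no test for these data.

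Expected counts were rounded, filtered by edgeR's default filter (13397 of 38215 genes), scaled by TMM and compared by the quasi-likelihood test of edgeR, adjusted by Benjamini-Hochberg over all genes at a threshold of 0.05 (R 4.3.3, edgeR 4.0.16). CPM values use TMM library sizes, and log2 CPM values a prior count of 2. The SE is the fold change divided by the square root of the F statistic. The tests were tried on simulated data. The members and all gene lists were chosen with earlier results of these data known. All 160 list entries matched a row. Named were all 10 members and, in each other list, the called genes, up to the 6 with the largest absolute log2 fold change. Genes named outside this rule (Fos, Klf6, Cxcl2, Notch1, subunits of CCR4-NOT, Skiv2l, Lsm2, Elavl1, Zc3h12b) were chosen after their values were seen. Marker lists were compared as log2(summed CPM + 0.5) with exact two-sided permutation tests. Of the gene identifiers, 95.1% are in GENCODE M21, 68.2% of them with identical coordinates; UTR sequence comes from that annotation and promoters from RefSeq. Depth (12427136 to 21921252 counts per library) sets the precision of low genes; as amplified reads are not independent molecules, errors come from the spread between libraries. Alternatives were DESeq2 1.42.0 size factors and test, no filter, a minimum of 10 counts in each library, batch as a term or batch 3 alone, a replicate block, limma-trend (limma 3.58.1) on log2(FPKM + 1) and log2(FPKM + 0.1), and each library left out.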

Additional observations from a re-analysis of the deposited data

Results flagged for a closer look

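In 5 of 44 groups of 4 libraries examined, 1 library stood far from the other 3 by Dixon's test, which chance alone does in about 1 group in 20. BM-Treg replicate 3 was the distant library for 3 members at once: Zfp36l1 at 862 CPM beside 669, 664 and 690, Tob1 at 113 CPM beside 94.3, 96.9 and 96.6, and Tob2 at 146 CPM beside 110, 114 and 111. It is also the most deeply sequenced library, at 21921252 counts, and the part of depth was not tested. Among SP-Treg libraries, replicate 2 stood apart in the summed B cell markers, at 95.2 CPM beside 6.32, 20.0 and 15.6. SP-Treg replicate 4 stood apart in the share of ENSMUST00000035911 in the counts of Rc3h1, at 35.6% beside 30.6%, 29.6% and 30.1%.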

How the results depend on the processing

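The number of genes called between the tissues, 1172, was 258 with batch as a term, 765 on log2(FPKM + 1), 728 on log2(FPKM + 0.1) and 690 to 1048 with single libraries left out. The share of called genes that were higher in BM-Treg was 42.6%, and 63.0% on log2(FPKM + 1). Of the members, 3 were called, 1 with batch as a term (Zfp36l2) and 1 to 3 with single libraries left out, with 1 without BM-Treg replicate 3. Machinery genes called, 2, were 1 with DESeq2 size factors, 5 with the DESeq2 test, 0 with batch as a term, 1 on log2(FPKM + 0.1), where it was higher in BM-Treg, and 0 to 2 with libraries left out. Relatives called, 3, were 1 on either FPKM scale and 1 to 3 with libraries left out. Targets called, 6, were 3 with batch as a term and 4 to 6 with libraries left out; Fos was called higher with the DESeq2 test, the replicate block and both FPKM scales. Immediate early genes called, 9, were 5 without the filter, 2 with batch as a term and 3 to 7 with libraries left out, with 3 without BM-Treg replicate 4. The median correlation between members within a tissue, 0.0092, was 0.055 on log2(FPKM + 1) and -0.012 to 0.058 with libraries left out. The cause of these changes was not tested, apart from the loss of samples. No marker list passed adjustment (0 of 7, plasma cell and CD8 and NK lists at exact permutation p = 0.0286, the smallest the design allows, adjusted 0.1). With all libraries a list could pass only if most of the 7 lists were at that smallest p together. With a library left out the test cannot reach 0.05. The absence of calls is therefore not read as like purity of the sorted cells. No member changed direction in any setting. Replicate numbers did not pair the libraries (correlations of same-numbered deviations -0.11, 0.06, -0.18 and 0.04). With the replicate block, 948 genes, 4 members (Zfp36 added), 1 machinery gene, 3 relatives, 6 targets and 8 immediate early genes were called.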

Other observations

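Summed markers of other cell types gave these ranges over the libraries. Plasma cell markers (3 genes) ran from 0 to 0.394 CPM in BM-Treg and from 0.575 to 25.2 CPM in SP-Treg, and CD8 and NK markers (4 genes) from 10.9 to 12.6 CPM and from 13.9 to 42.7 CPM, so that neither list overlapped between the tissues. Neutrophil markers (8 genes) ran from 1.31 to 10.4 CPM and from 0.215 to 18.4 CPM, monocyte markers (5 genes) from 12.3 to 16.5 CPM and from 4.17 to 23.0 CPM, and pDC markers (2 genes) from 29.5 to 39.8 CPM and from 8.76 to 42.1 CPM, all overlapping. The part of these cells in the levels of the 10 genes was not tested.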
